A study of Caenorhabditis elegans with 2 samples.

Results

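Peaks of RNA polymerase II that lay between divergent gene pairs were taken from a map of AMA-1, the large catalytic subunit of the enzyme, in young adult Caenorhabditis elegans. A divergent gap is a stretch of sequence whose nearest protein-coding gene is on the minus strand to the left and on the plus strand to the right, so that both genes start at the gap and are read away from it. A peak was counted when its summit, the base of highest signal, fell in no annotated protein-coding gene body and in such a gap. This rule kept 3557 of the 30000 peaks in the pooled relaxed list. The list was made by the authors from the reads of both replicates and is labelled as holding background as well as peaks, so its weaker summits may be background.

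The study comprised ChIP-seq, in which DNA cross-linked to a protein is precipitated with an antibody and sequenced, with an antibody against ama-1. All samples were whole worms of the wild-type strain N2 of mixed sex at the young adult stage, in 1 group of 2 biological replicates. There was no treated or mutant group, and the age in days was given as unknown. Whole worms mix all tissues and the germ line, so a strong signal in few cells and a weak signal in many cannot be told apart.

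RNA polymerase II starts at promoters, and at a divergent pair the promoters of both genes lie in the same gap. ChIP-seq reports where the enzyme sits and not which strand it reads, so a summit in such a gap cannot be given to 1 of the genes. Many worm messages are trimmed at their 5′ end and joined to a spliced leader, a short RNA added by trans-splicing, so that an annotated start is often the splice site and transcription begins upstream of it.

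The sequences under 3 of the strongest summits are shown because they carry the sequence feature described at the end, a GA repeat, to very different extents. Each is the plus strand of WBcel235 read from the RefSeq genome, in lower case, with capitals marking GAGAGA and TATAAA or their reverse complements. The first 3 are windows of 201 bases centred on the summit. The fourth is a whole short gap, and the fifth is the whole gap of a heat shock gene pair that held no peak; these 2 were chosen after their values were seen.
tim-1/Y75B8A.23, chrIII:12250459-12250659: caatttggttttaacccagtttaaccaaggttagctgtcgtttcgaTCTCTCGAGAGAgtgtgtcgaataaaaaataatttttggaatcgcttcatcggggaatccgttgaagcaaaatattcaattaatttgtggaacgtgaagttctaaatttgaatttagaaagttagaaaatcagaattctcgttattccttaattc
acr-18/acs-2, chrV:15566907-15567107: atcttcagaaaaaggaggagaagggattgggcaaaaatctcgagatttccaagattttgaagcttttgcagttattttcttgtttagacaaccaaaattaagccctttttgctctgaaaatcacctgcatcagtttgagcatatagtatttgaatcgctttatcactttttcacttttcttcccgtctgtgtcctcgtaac
din-1/ghi-1, chrII:11635885-11636085: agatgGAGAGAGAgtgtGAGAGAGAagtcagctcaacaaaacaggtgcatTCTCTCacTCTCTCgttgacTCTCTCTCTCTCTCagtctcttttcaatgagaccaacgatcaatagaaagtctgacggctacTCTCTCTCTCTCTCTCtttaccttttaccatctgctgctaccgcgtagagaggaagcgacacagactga
F40F11.3/mig-38, chrIV:11594004-11594243: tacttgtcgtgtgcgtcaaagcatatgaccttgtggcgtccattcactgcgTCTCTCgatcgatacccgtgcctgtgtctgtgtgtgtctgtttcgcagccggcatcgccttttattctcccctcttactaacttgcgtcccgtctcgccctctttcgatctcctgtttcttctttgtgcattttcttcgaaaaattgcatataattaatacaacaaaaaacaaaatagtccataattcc
hsp-16.2/hsp-16.41, chrV:1804958-1805177: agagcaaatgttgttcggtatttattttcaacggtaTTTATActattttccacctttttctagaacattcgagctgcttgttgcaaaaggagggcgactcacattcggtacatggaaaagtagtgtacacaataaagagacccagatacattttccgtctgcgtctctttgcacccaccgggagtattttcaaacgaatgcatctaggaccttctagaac
The din-1/ghi-1 window held 17 matches, counting overlapping ones, all of them to the GA repeat. The tim-1/Y75B8A.23 window held 2 and the acr-18/acs-2 window none. The gap between hsp-16.2 and hsp-16.41, a pair of small heat shock genes, held 1 match, to TATAAA.

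The authors' optimal list is labelled as thresholded by IDR, a procedure that assesses reproducibility. It consists of the 1103 strongest peaks of the pooled list by signal value, the score of the peak caller, so a peak was optimal when its pooled rank was 1103 or better (rank 1 being the strongest). Of the 3557 divergent-gap peaks, 130 were optimal, which is 3.65% with a 95% Wilson interval of 3.09 to 4.32%. The share over all pooled peaks was 3.68%, inside that interval. Convergent gaps, which lie between the 3′ ends of a pair, had 59 optimal peaks of 587, or 10.1% (7.87 to 12.7%). Tandem gaps, between genes read the same way, had 263 of 5223, or 5.04% (4.47 to 5.66%), and protein-coding gene bodies had 650 of 20630, or 3.15%. The interval for divergent gaps overlapped neither that for convergent nor that for tandem gaps. These intervals, and all others here, cover the counting of peaks and not variation between worms. They take each peak as separate and make no allowance for several peaks in 1 gap. The sequencing depth of the samples is unknown, and with 1 group no test over samples was possible.

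The median rank did not order the kinds of gap as the optimal share did. Divergent-gap peaks had a median pooled rank of 13293 (quartiles 6411 and 21215), convergent-gap peaks 12895, tandem-gap peaks 13949 and gene-body peaks 15580.5. Among the 10000 strongest peaks, which are 33.3% of the list, were 1379 divergent-gap peaks (38.8%), 243 convergent-gap peaks (41.4%) and 1951 tandem-gap peaks (37.4%). Among the 2206 strongest, which are 7.35% of the list, were 289 divergent-gap peaks (8.12%), and at the highest −log10 (q-value), reached by 18.5% of the list, were 784 (22.0%). Divergent-gap peaks thus had a better median rank than the list as a whole and reached its optimal part at the same rate.

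The annotation held 4210 divergent gaps, which covered 12.9 Mb and had a median length of 1404.5 bp, against 584 bp for 2711 convergent and 866 bp for 10151 tandem gaps. Summits were found in 1334 divergent gaps (31.7%). Of these gaps, 651 held 1 summit, 252 held 2, 131 held 3, 86 held 4 and 214 held 5 or more. Per Mb of sequence, divergent gaps held 276 summits (exact Poisson interval 267 to 285), convergent gaps 140 (129 to 152) and tandem gaps 257 (250.5 to 264). For optimal summits the order of the values was the other way: 10.1 per Mb (8.43 to 12) in divergent gaps, 14.1 (10.7 to 18.2) in convergent gaps and 13.0 (11.4 to 14.6) in tandem gaps, with intervals that overlapped.

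Short divergent gaps were the most densely occupied. Gaps under 500 bp held 967 summits per Mb (851 to 1095), those of 500 to under 1000 bp held 532, those of 1000 to under 2000 bp held 344, those of 2000 to under 5000 bp held 273 and those of 5000 bp or more held 227. At under 500 bp the density was 516 per Mb in convergent and 640 in tandem gaps, below the interval for divergent gaps. Density fell with gap length in those kinds too, to 68.8 per Mb in convergent and 212 in tandem gaps of 5000 bp or more. Of divergent gaps under 500 bp, 232 of 907 (25.6%) held any summit, against 360 of 809 (44.5%) of those of 5000 bp or more. In the classes between, from short to long, 30.7%, 25.8% and 32.3% of the gaps did.

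Signal rank followed gap length in the same order. The median pooled rank was 7738 in divergent gaps under 500 bp, 9266 at 500 to under 1000 bp, 10566 at 1000 to under 2000 bp, 13052 at 2000 to under 5000 bp and 15198 at 5000 bp or more. The shares among the 10000 strongest were 60.2%, 52.6%, 48.7%, 38.5% and 31.5% in the same classes. The median GC content of the windows, 36.3 to 37.3% in the 5 classes, did not follow gap length. Tandem gaps showed the same order of rank, with medians of 9250, 12615.5, 12901, 13936 and 15559 from short to long. In convergent gaps the medians were 8093.5, 15477, 13261.5, 13904 and 15119, so only the shortest class stood apart.

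The optimal share did not follow this order. It was 4.42% (11 of 249) in divergent gaps under 500 bp, 4.81% (15 of 312) at 500 to under 1000 bp, 7.29% (28 of 384) at 1000 to under 2000 bp, 2.63% (21 of 797) at 2000 to under 5000 bp and 3.03% (55 of 1815) at 5000 bp or more. The interval of the middle class, 5.09 to 10.3%, overlapped neither of those of the longer classes, 1.73 to 3.99% and 2.34 to 3.92%, and did overlap those of the shorter ones. Tandem gaps under 500 bp had an optimal share of 10.2% (7.79 to 13.1%). That interval began just above the end of the interval for divergent gaps of the same length (2.48 to 7.74%). Without summits near a non-coding gene the intervals overlapped, at 2.16 to 7.56% in divergent and 7.39 to 12.8% in tandem gaps of that length.

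**Figure D1:**
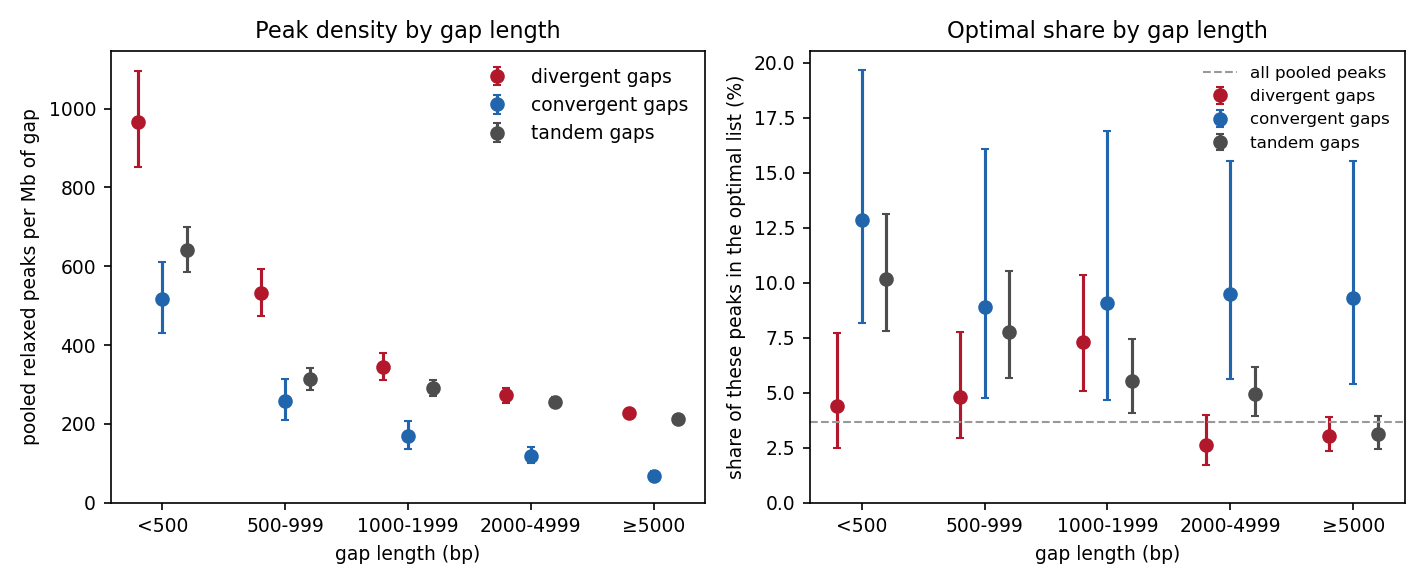
Pooled relaxed summits per Mb of gap (left) and the percentage of them in the optimal list (right) by gap length in bp, for divergent, convergent and tandem gaps; bars are 95% intervals for counting and the dashed line is the share over all pooled peaks. Divergent gaps under 500 bp hold 967 summits per Mb, against 516 and 640 in the other kinds, while their optimal share is 4.42%, against 12.9% and 10.2%.

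Each replicate list, placed on genes anew, gave a similar picture. In the replicate 1 list the median ranks of divergent-gap peaks from the shortest to the longest gaps were 9095, 11025.5, 10660, 12493.5 and 14510 of 27847. In the replicate 2 list they were 8212, 9927, 11014, 13402 and 15685.5 of 30000. Replicate 2 repeated the order of the pooled list, and replicate 1 repeated it apart from its second and middle classes, whose values were exchanged. Of the 1103 strongest peaks of the replicate 1 list, 3.96% of that list, 122 lay in divergent gaps, which is 4.41% of its divergent-gap peaks. Of the 1103 strongest of the replicate 2 list, 3.68% of that list, 128 did, which is 3.32% of its divergent-gap peaks. Neither list is independent of the pooled one, which holds the reads of both.

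Divergent-gap peaks were matched to the replicate lists by an overlap of at least 1 bp. A replicate 1 peak overlapped 2136 of them (60.1%, against 61.5% of all pooled peaks) and a replicate 2 peak 3208 (90.2%, against 84.9%). Both did so for 1886, or 53.0% (51.4 to 54.7%), against 50.2% of all pooled peaks. Another 1322 (37.2%) were matched in replicate 2 only, 250 (7.03%) in replicate 1 only and 99 in neither. Of all 30000 pooled peaks, 10388 were matched in replicate 2 only, 3368 in replicate 1 only and 1171 in neither. More matches in replicate 2 alone than in replicate 1 alone were thus seen over the whole list too. The share matched in replicate 2 only was 21.3%, 18.9% and 23.2% in the 3 classes under 2000 bp, and 39.8% and 44.3% in the 2 longer classes. In the longest divergent gaps nearly as many peaks were matched in replicate 2 only as in both replicates (46.5%). In tandem gaps the share matched in replicate 2 only was 16.9% in the shortest and 46.1% in the longest class. In convergent gaps it was 25.8% and 39.5%.

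Of the 130 optimal divergent-gap peaks, replicate 1 matched 128, against 97.1% of the whole optimal list, and replicate 2 matched 127, against 98.5%. Both matched 125, or 96.2%, against 95.6% of the whole optimal list. The matched summits lay a median of 23.5 bp away in replicate 1 and 5 bp away in replicate 2. Among the 125, the median rank was 1425 in the replicate 1 list and 633 in the replicate 2 list, and 37 (29.6%) ranked better in replicate 1. Over all optimal peaks matched in both, the medians were 973 and 569, and 32.9% ranked better in replicate 1. Among the 1103 strongest peaks of its own list, replicate 1 had 58 of the 130, against 51.1% of the whole optimal list, replicate 2 had 101, against 77.5%, and 41 were in both, against 36.7%.

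**Figure D2:**
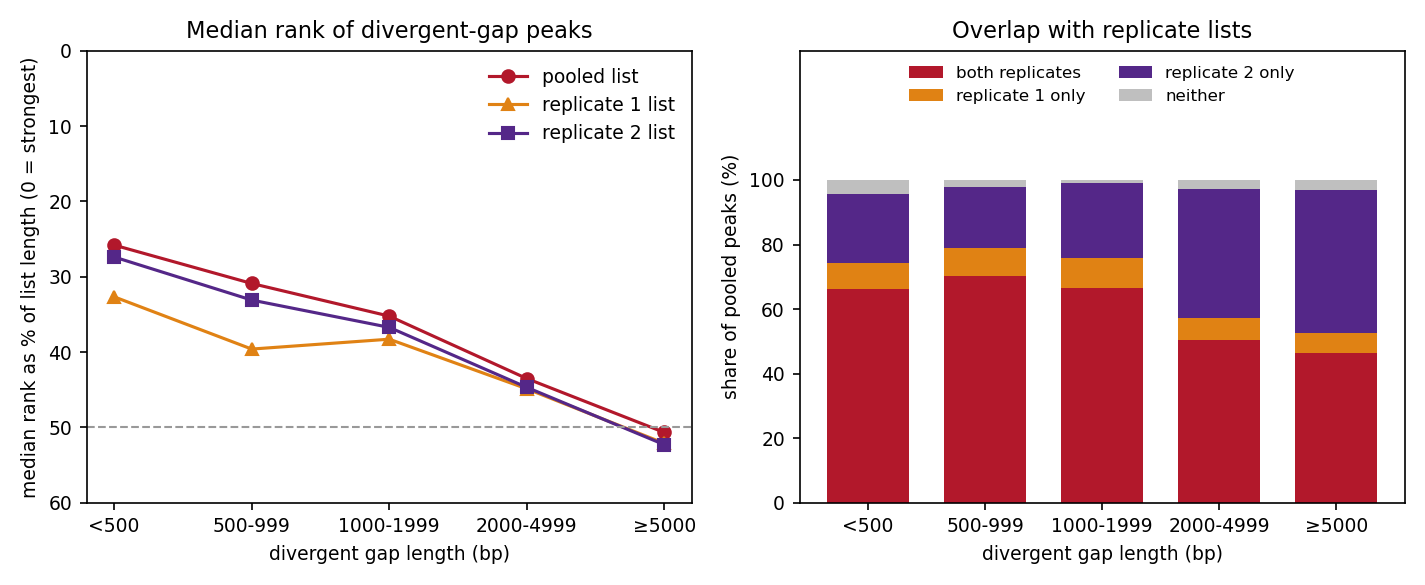
Divergent-gap peaks by gap length in bp: median rank as a percentage of the length of each list (left, stronger upwards, dashed line at the middle of a list) and the percentage of pooled peaks overlapped in the replicate lists (right, stacked). Median ranks worsen with gap length in all 3 lists apart from the second and middle classes of replicate 1, and the share matched in replicate 2 only is 21.3% in the shortest and 44.3% in the longest gaps.

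The strongest divergent-gap summit lay between tim-1, the worm homologue of Timeless, and Y75B8A.23 on chromosome III, in a gap of 495 bp. It ranked 23 in the pooled list, 40 in replicate 1 and 28 in replicate 2, 101 bp from the annotated start of Y75B8A.23. The summit fell within sls-2.8, a gene for an SL2 spliced leader RNA, which is itself made by RNA polymerase II, so the signal in the window shown above cannot be given to the protein-coding pair alone. The summit between W06H8.6 and K08B12.3 on chromosome V ranked 27 in the pooled list, 31 in replicate 1 and 34 in replicate 2. It too fell within a non-coding gene, 413 bp from the start of W06H8.6 in a gap of 8165 bp that held 11 pooled summits, 4 of them optimal.

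The next strong summits had no annotated non-coding gene within 100 bp. The summit between pqn-59 and taf-4, which encodes a subunit of the general transcription factor TFIID, was the strongest in gaps of 500 to under 1000 bp. It ranked 33 in the pooled list, 28 in replicate 1 and 105 in replicate 2. The summit between acr-18, a nicotinic acetylcholine receptor subunit gene, and acs-2, which encodes an acyl-CoA synthetase of fatty acid oxidation, lay 387 bp from the start of acs-2 and 7860 bp from that of acr-18. It ranked 44 in the pooled list, 48 in replicate 1 and 62 in replicate 2. These summits were near the top of both replicate lists.

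The summit between clec-113, a C-type lectin gene, and hmg-6 was the strongest in gaps of 2000 to under 5000 bp, with rank 52 in the pooled list, 290 in replicate 1 and 36 in replicate 2. A snoRNA gene lay 107 bp from it. The summit between brc-1, the worm BRCA1 homologue, and acs-19 was the strongest in gaps of 1000 to under 2000 bp, with rank 76 in the pooled list, 124 in replicate 1 and 97 in replicate 2. It lay 289 bp from the start of brc-1. Both replicates thus placed these 2 summits within the best 290 of their lists, although the 2 ranks of the clec-113 and hmg-6 summit were unlike.

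In the gap between F40F11.3 and mig-38, a gene for migration of the gonadal tip cells, 240 bp separated the annotated starts, and the summit lay 23 bp from that of mig-38. It ranked 124 in the pooled list, 261 in replicate 1 and 138 in replicate 2. By contrast, the summit between F54F12.1 and Y39E4B.6 lay 5992 and 9322 bp from the annotated starts, in a gap of 15313 bp with 16 pooled summits. It ranked 89 in the pooled list, 86 in replicate 1 and 147 in replicate 2. High rank was therefore seen both at an annotated start and several kb from any.

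Replicates gave unlike ranks at other strong summits. The summit between gcc-2 and cbp-1, the gene of the histone acetyltransferase CBP/p300, ranked 116 in the pooled list, 1028 in replicate 1 and 72 in replicate 2. The first summit between gldi-3 and mtrr-1, a methionine synthase reductase gene, ranked 112, 1297 and 76 in the same lists. The strongest summit between din-1, which encodes a corepressor partner of the nuclear receptor DAF-12, and ghi-1 ranked 73 in the pooled list, 302 in replicate 1 and 51 in replicate 2. All of these were stronger in replicate 2 by rank.

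The opposite was seen between F26A3.4 and F26A3.5, where the summit ranked 126 in the pooled list, 41 in replicate 1 and 327 in replicate 2. The peak there was 2670 bp wide, against 336 bp for 98.8% of all divergent-gap peaks and 75.4% of the optimal ones. The summit between egrh-2 and lep-2, the gene of a makorin protein, ranked 175 in the pooled list, 50 in replicate 1 and 970 in replicate 2. The summit between Y102F5A.1 and rsd-3, an epsin-related gene needed for systemic RNA interference, ranked 1020 in the pooled list, 297 in replicate 1 and 4217 in replicate 2, and lay in a snoRNA gene. By the ratio of ranks these 3 favoured replicate 1 more than any other optimal divergent-gap peak matched in both lists.

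The 3 that favoured replicate 2 most by that ratio had a match deep in the replicate 1 list. The summit between sgn-1, a sarcoglycan gene, and F07H5.13 ranked 300 in the pooled list, 27737 in replicate 1 and 167 in replicate 2. A second summit between din-1 and ghi-1 ranked 503, 25500 and 246, and a second between gldi-3 and mtrr-1 ranked 654, 20867 and 284, in the same lists. For these summits replicate 1 had only an overlapping weak peak.

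Some gaps held several optimal summits. The 130 lay in 104 gaps, 89 of which held 1, and 7 gaps with 3 or more held 25 of them (19.2%). Those were sgn-1/F07H5.13, tin-9.1/nhr-105, din-1/ghi-1 and W06H8.6/K08B12.3 with 4 each, and F26A3.4/F26A3.5, gldi-3/mtrr-1 and lpin-1/letm-1 with 3 each. In the gap between sgn-1 and F07H5.13 they were spread over 5246 bp, and in the other 6 gaps over 1965 to 2533 bp. All 7 gaps were at least 5553 bp long. In the gap between lpin-1, which encodes the phosphatidate phosphatase lipin, and letm-1, a mitochondrial inner membrane gene, the optimal summits ranked 271 to 450 among 16 pooled summits.

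Divergent-gap summits lay a median of 829 bp from the nearer annotated start (quartiles 228 and 2127 bp), and the optimal ones 535.5 bp. Within 100 bp of a start were 438 (12.3%), on 6.41% of the gap sequence, and within 500 bp were 1429 (40.2%), on 25.9% of it. Of the optimal summits, 14 (10.8%) lay within 100 bp and 64 (49.2%) within 500 bp. These shares pool gaps of unlike length and summit density. Within a length class the shares over all summits stood closer to the share of sequence. Within 100 bp of a start lay 63.5% of summits on 64.0% of the sequence in gaps under 500 bp, and 28.8% on 27.6% at 500 to under 1000 bp. The shares were 15.9% on 13.9% at 1000 to under 2000 bp, 7.78% on 6.21% at 2000 to under 5000 bp and 3.69% on 2.02% at 5000 bp or more. Of the optimal summits in the 2 shortest classes, 4 of 11 (36.4%) and 1 of 15 (6.67%) lay within 100 bp. At 1000 to under 2000 bp 14.3% did, and at 2000 to under 5000 bp 9.52%. In gaps of 5000 bp or more, 3 of 55 optimal summits (5.45%) lay within 100 bp, on 2.02% of the sequence. Within 500 bp lay 14 of those 55 (25.5%), on 10.1% of the sequence, so the optimal shares there stayed above the share of sequence. Per Mb of gap sequence at the given distance there were 531 pooled summits within 100 bp, 483 from there to 250 bp, 328 to 500 bp, 253 to 1000 bp, 247 to 2000 bp and 197 farther away. Optimal summits numbered 17.0 per Mb within 100 bp, 23.1 from there to 250 bp, 17.5 to 500 bp, 11.7 to 1000 bp, 7.20 to 2000 bp and 4.74 farther away. The counts behind the optimal densities were only 14 to 25, so the order of the first 3 values is not resolved.

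**Figure D3:**
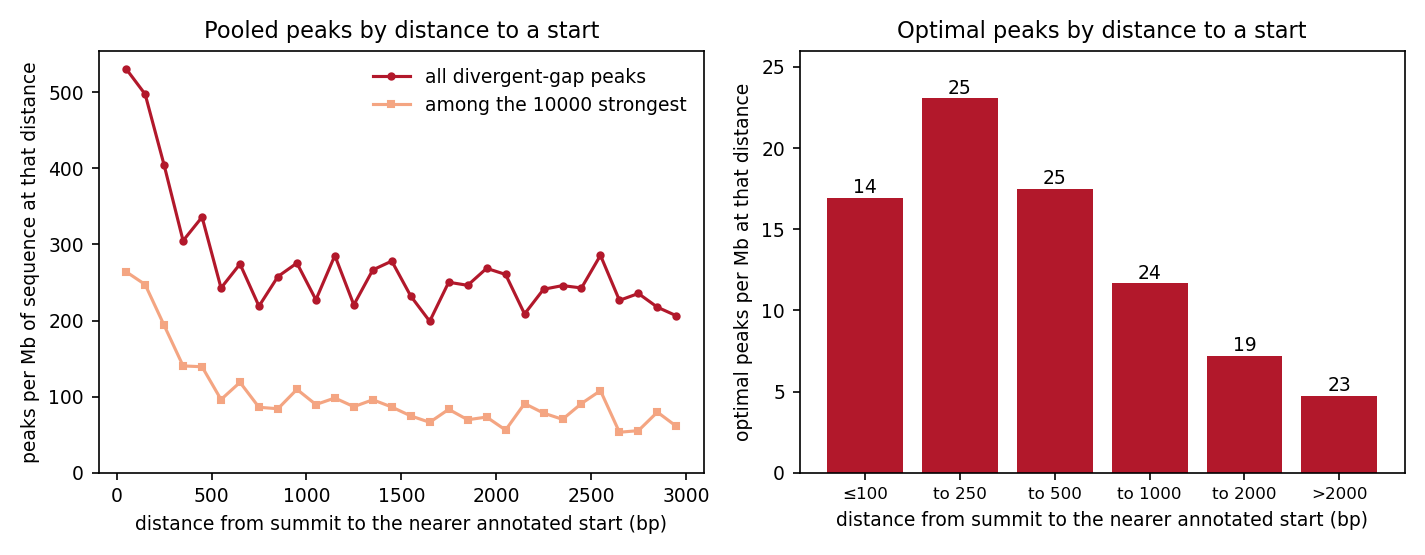
Divergent-gap summits per Mb of gap sequence against the distance in bp to the nearer annotated start, for all pooled summits and those among the 10000 strongest in 100-bp steps (left) and for optimal summits in 6 distance classes (right, with the number of summits above each bar). Pooled density is 531 per Mb within 100 bp of a start and 253 per Mb from 500 to 1000 bp.

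Summits divided evenly between the sides of the gap. The nearer start was that of the left gene for 1792 summits and of the right gene for 1764, and for 64 and 66 of the optimal ones. In tandem gaps, where a summit can lie near the start of one gene or the 3′ end of the other, 114 of 263 optimal summits (43.3%) were nearer the start, against 2835 of all 5223 (54.3%). The median distances of the optimal ones were 797 bp to the start and 321 bp to the end, against 1268 bp and 1436 bp for all tandem-gap summits. In convergent gaps, which hold no start of a bounding gene, optimal summits lay a median of 158 bp from the nearer 3′ end. These kinds of gap differ in length, so their distances are given side by side and not compared.

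Polymerase peaks in a divergent gap went with peaks in the bodies of the bounding genes. Of the 104 gaps with an optimal summit, 56 (53.8%) had a pooled summit in both gene bodies, 40 in 1 of them and 8 in neither. Of the 1230 gaps with pooled summits but no optimal one, 529 (43.0%) had one in both bodies. Of the 2876 gaps with no summit, 228 (7.93%) had one in both and 2087 (72.6%) in neither. An optimal summit was found in at least 1 of the bodies beside 30 (28.8%) of the gaps with an optimal summit, 96 (7.80%) of those with weaker summits and 48 (1.67%) of those with none. In none of the 104 did both bodies hold an optimal summit, against 2 of the 1230 and 3 of the 2876. This was rare in every group, so the groups cannot be told apart by it. Gene length was not taken into account, and longer bodies offer more room for a summit.

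Non-coding genes stood beside part of these peaks. An annotated non-coding gene other than a piRNA gene lay within 100 bp of 401 divergent-gap summits (11.3%, against 5.59% of all pooled summits). Of the 130 optimal summits this held for 30 (23.1%, against 13.1% of the whole optimal list). Convergent gaps had higher values still, with 16.4% of pooled and 30.5% of optimal summits near such a gene, and tandem gaps had 9.11% and 16.7%. The optimal share was 7.48% (5.29 to 10.5%) among those near a non-coding gene and 3.17% (2.61 to 3.84%) among the 3156 others. By type, 17 of the 30 were nearest to an ncRNA gene, 5 to a snoRNA gene, and 2 each to an snRNA, a lincRNA, a miRNA and a pseudogene. Leaving these summits out left the median rank in the same order across the gap classes, at 7869, 9755, 11195.5, 13144 and 15352.5 from short to long. The class of 1000 to under 2000 bp then still had the largest optimal share of the 5, 6.36% (22 of 346). The part of non-coding transcription in the remaining summits was not tested.

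Divergent gaps on the X chromosome held fewer optimal peaks. On X, 10 of 647 divergent-gap peaks were optimal, 1.55% (0.842 to 2.82%), against 120 of 2910 on the autosomes, 4.12% (3.46 to 4.91%). Divergent gaps were longer on X, with a median of 3440 bp against 1188 bp on the autosomes. Within gaps of 5000 bp or more the shares were 1.48% on X and 3.48% on the autosomes, and their intervals overlapped. The share matched in replicate 1 was 47.6% on X and 62.8% on the autosomes, and the share matched in replicate 2 was 92.9% on X and 89.6% on the autosomes. All pooled peaks went the same way, with 51.7% on X and 63.3% on the autosomes in replicate 1, and 89.6% on X and 84.0% on the autosomes in replicate 2. In convergent gaps the optimal share was 12.2% on X and 9.34% on the autosomes, and in tandem gaps 3.46% on X and 5.41% on the autosomes. Among the autosomes the divergent-gap share ran from 3.39% on chromosome I to 5.09% on chromosome III. Over all pooled peaks of a chromosome the optimal share was 3.08% on X, 3.15% on chromosome I and 3.74% on chromosome III. On the autosomes it ran from 2.98% on chromosome IV to 4.97% on chromosome V. The worms were of mixed sex in a proportion the labels do not give, and the copy number of X in the samples is unknown.

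Gene families differed in how often their divergent gaps held polymerase. Of the 8422 genes that bound a divergent gap, counting both where genes end at the same base, 2669 (31.7%) had a pooled summit in the gap, 1661 (19.7%) had one among the 10000 strongest, and 209 (2.48%) had an optimal one. Since both genes of a pair are counted for the same summit, the counts say where a summit lay and not which gene it belongs to.

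Genes of the translation and protein turnover machinery had summits in most of their divergent gaps. Among cytosolic ribosomal protein genes, 45 of 53 (84.9%) had a pooled summit, 38 (71.7%) had one among the 10000 strongest and 7 (13.2%) had an optimal one. Their gaps had a median length of only 562 bp, against 1404.5 bp for all divergent gaps. The strongest summit, that of rpl-1, ranked 475 in the pooled list, 246 in replicate 1 and 1317 in replicate 2. A non-coding gene lay within 100 bp of the rpl-1 summit. The next, that of rpl-15, ranked 518 in the pooled list, 935 in replicate 1 and 673 in replicate 2. All 3 pairs in which both genes encode a cytosolic ribosomal protein had a summit, none optimal. The gap of rps-14 and rpl-36 ranked 1146, that of rps-10 and rpl-24.1 ranked 1742 and that of rpl-39 and rps-30 ranked 2513 in the pooled list.

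Subunits of the V-ATPase, the proton pump of acidic compartments, had a summit in 9 of 10 cases, and the strongest, beside vha-1, was optimal with rank 505 in the pooled list, 1193 in replicate 1 and 718 in replicate 2. The second, in the gap of sod-4 and vha-14, lay 6 bp from the start of sod-4 and 7719 bp from that of vha-14. It ranked 1581 in the pooled list and 877 in replicate 2, and had no match in replicate 1. Proteasome subunits had a summit in 17 of 22 cases (77.3%), aminoacyl-tRNA synthetases in 12 of 16 (75%), splicing factors in 19 of 27 (70.4%) and mitochondrial ribosomal proteins in 20 of 33 (60.6%). None of the synthetase or splicing factor gaps held an optimal summit. The closest to it was the gap of mat-1 and prp-31, a splicing factor gene, with rank 1121 in the pooled list, 1432 in replicate 1 and 1022 in replicate 2, just outside the limit of 1103.

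The summit shared by mrps-6, a mitochondrial ribosomal protein gene, and rpn-8, a proteasome gene, was optimal with rank 939 in the pooled list and 1205 in replicate 2, but ranked 13594 in replicate 1. That of mrps-7 ranked 819 in the pooled list, 4746 in replicate 1 and 852 in replicate 2. The gap of hsp-110 and the proteasome gene rpn-3 held a summit within 100 bp of a non-coding gene. It ranked 1923 in the pooled list, 6169 in replicate 1 and 670 in replicate 2. All of these were stronger by rank in replicate 2. Among the synthetases the strongest summits were those of cars-1 at rank 2694 and of kars-1 at rank 2796 in the pooled list.

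Chemoreceptor genes, which are used in sensory neurons, had a pooled summit in 21 of 456 cases (4.61%), C-type lectin genes in 4 of 99 (4.04%) and cuticle collagen genes in 8 of 54 (14.8%). The strongest beside a chemoreceptor gene lay between seip-1 and srd-20, 12 bp from the start of seip-1, with rank 1004 in the pooled list, 24599 in replicate 1 and 1075 in replicate 2. The next, beside str-30, ranked 2398 in the pooled list and lay 609 bp from the start of nrsn-1, the gene across the gap. The 78 pairs in which both genes encode a chemoreceptor held no pooled summit, nor did the 16 pairs of C-type lectin genes.

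Beside collagen genes the strongest summit, next to col-42, was optimal with rank 511 in the pooled list, 1190 in replicate 1 and 824 in replicate 2. The second lay between col-38 and the ribosomal protein gene rpl-5, with rank 2187 in the pooled list and non-coding genes within 100 bp. Nuclear hormone receptor genes had a summit in 33 of 104 cases (31.7%, the same percentage as over all bounding genes) and homeobox genes in 6 of 24 (25%). The strongest beside a nuclear hormone receptor gene was that of tin-9.1 and nhr-105, with rank 426 in the pooled list, 266 in replicate 1 and 668 in replicate 2, and that beside nhr-86 ranked 737. Of the 14 pairs of 2 nuclear hormone receptor genes, 2 held a summit. The strongest in a gap bounded by a homeobox gene lay nearer to the other gene: that of swan-1 and ceh-24, at rank 2420, was 56 bp from swan-1 and 5938 bp from ceh-24, and that of ceh-86 and vab-19, at rank 2531, was 696 bp from vab-19 and 10511 bp from ceh-86.

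Histone and heat shock pairs share short gaps. Numbered histone genes had a pooled summit in 5 of 66 cases (7.58%), and of the 31 gaps between 2 of them, 227 to 368 bp long, 1 held a summit. It lay between his-61 and his-62, 7 bp from the start of his-62, with rank 3416 in the pooled list and 516 in replicate 1, and without a match in replicate 2. The strongest summit beside a histone gene, that of his-42, ranked 843 in the pooled list, 827 in replicate 1 and 1812 in replicate 2. Non-coding genes lay within 100 bp of the his-42 summit. Heat shock genes had a summit in 5 of 12 cases, the strongest beside the chaperone gene hsp-3 with rank 716 in the pooled list, 1681 in replicate 1 and 836 in replicate 2. The 3 gaps between paired hsp-16 genes held none. Both families are repeated in the genome, and how the authors' alignment treated reads that fit several copies was not checked, so a missing summit there is not a measure of absent polymerase.

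**Figure D4:**
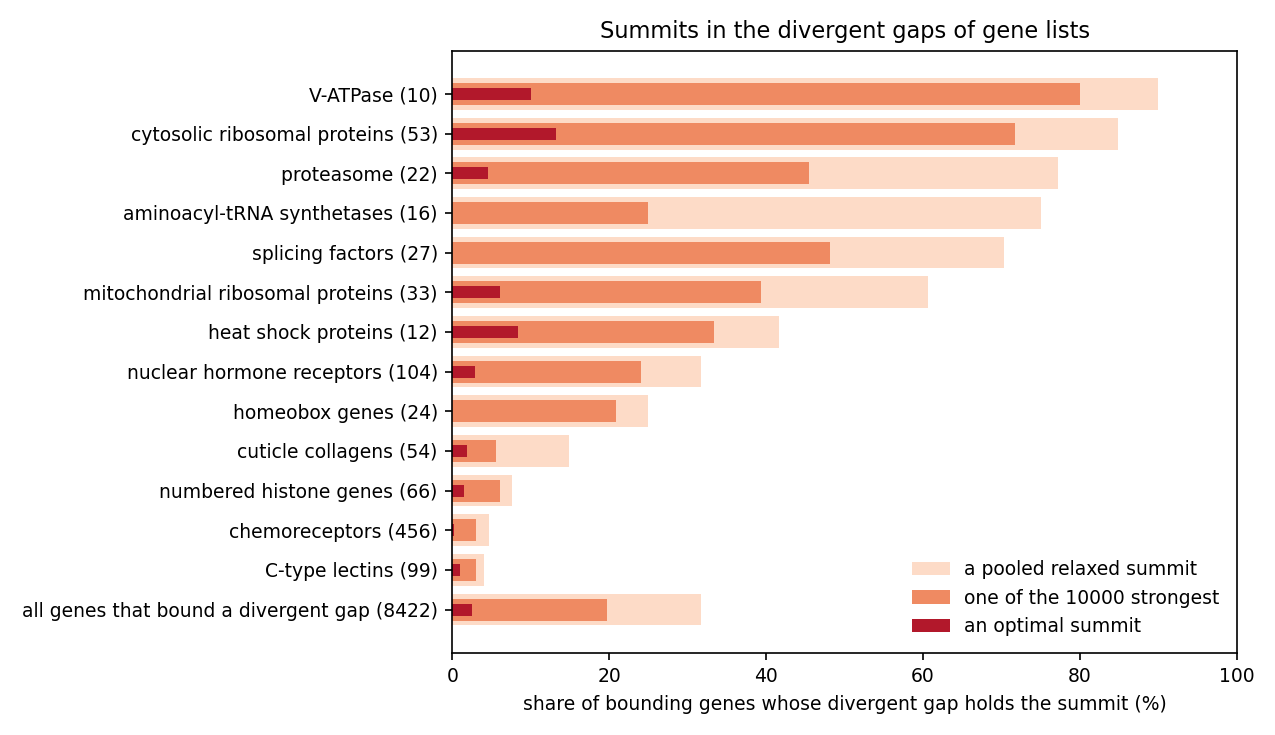
Percentage of the genes of each list whose divergent gap holds a pooled relaxed summit, a summit among the 10000 strongest, or an optimal summit, with the number of bounding genes in brackets. Cytosolic ribosomal protein genes reach 84.9% and chemoreceptor genes 4.61% for pooled summits, against 31.7% over all genes that bound a divergent gap.

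The letters GAGAGA, searched on both strands in the 201 bases around each summit, were more frequent at strong divergent-gap summits. They were found at 49 of 130 optimal summits (37.7%, 29.8 to 46.3%) and at 711 of 3427 others (20.7%, 19.4 to 22.1%), against 15.6% of all pooled summits. All tandem-gap summits held them in 19.4% (18.3 to 20.5%), all convergent-gap summits in 14.5% and all gene-body summits in 13.7%. By rank in the pooled list the share was 37.7% for the optimal ones, 25.7% up to rank 5000, 24.6% up to rank 10000, 19.5% up to rank 20000 and 16.8% beyond. Optimal summits in convergent gaps held them in 22.0% (13.4 to 34.1%), in tandem gaps in 26.2% (21.3 to 31.9%), in gene bodies in 19.7% (16.8 to 22.9%) and over the whole optimal list in 23.5%. The interval for divergent gaps overlapped those for convergent and tandem gaps and not that for gene bodies.

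Counting only the strongest optimal summit of each gap gave 43 of 104 (41.3%), and leaving out summits near a non-coding gene gave 38 of 100 (38%). In gaps under 1000 bp the letters were found at 5 of 26 optimal summits (19.2%, 8.51 to 37.9%) and in longer gaps at 44 of 104 (42.3%, 33.3 to 51.9%). Over all divergent-gap summits the shares were 14.9% and 15.7% in the classes under 1000 bp. In the longer classes they were 25.5%, 23.2% and 21.5%. The divergent-gap peaks among the 1103 strongest of each replicate list held them at 36 of 122 (29.5%) in replicate 1 and at 48 of 128 (37.5%) in replicate 2, against 21.3% and 21.2% of all divergent-gap peaks of those lists. The direction of this difference was therefore the same in each replicate. In replicate 1 the intervals overlapped, at 22.1 to 38.1% and 19.8 to 22.9%. In replicate 2 they did not, at 29.6 to 46.1% and 19.9 to 22.5%.

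Base composition differed as well. The median GC content of the windows was 40.3% at optimal and 36.3% at other divergent-gap summits, and 37.3% over all pooled summits. It was 40.8% over the whole optimal list, so this was not particular to divergent gaps. At optimal summits it was 41.8% in gene bodies, 38.8% in tandem gaps and 37.8% in convergent gaps. Gene bodies thus had the highest GC content of these kinds and the lowest share with the letters, 19.7%. In windows of at least 37% GC the letters were found at 45 of 94 optimal summits (47.9%, 38.1 to 57.9%) and 478 of 1564 others (30.6%, 28.3 to 32.9%). In windows below 37% GC they were found at 4 of 36 (11.1%) and 233 of 1863 (12.5%). The division at 37% was chosen after the values were seen. The difference was thus seen in the richer windows and not in the poorer ones, where 36 optimal summits leave an interval of 4.41 to 25.3%.

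The other letters searched differed little. TATAAA was found at 16.2% of optimal and 18.7% of other divergent-gap summits, against 17.2% of all pooled summits. TGATAA was found at 19.2% of optimal and 17.3% of other divergent-gap summits, against 17.2% of all pooled summits. GGGCGG was found at 6.15% and 5.52%, against 3.97%, and CACGTG at 3.85% and 4.46%, against 4.65%, in the same order. For each of these the interval of the optimal summits held the share of the others. A match is a run of letters and no evidence of a bound factor.

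**Figure D5:**
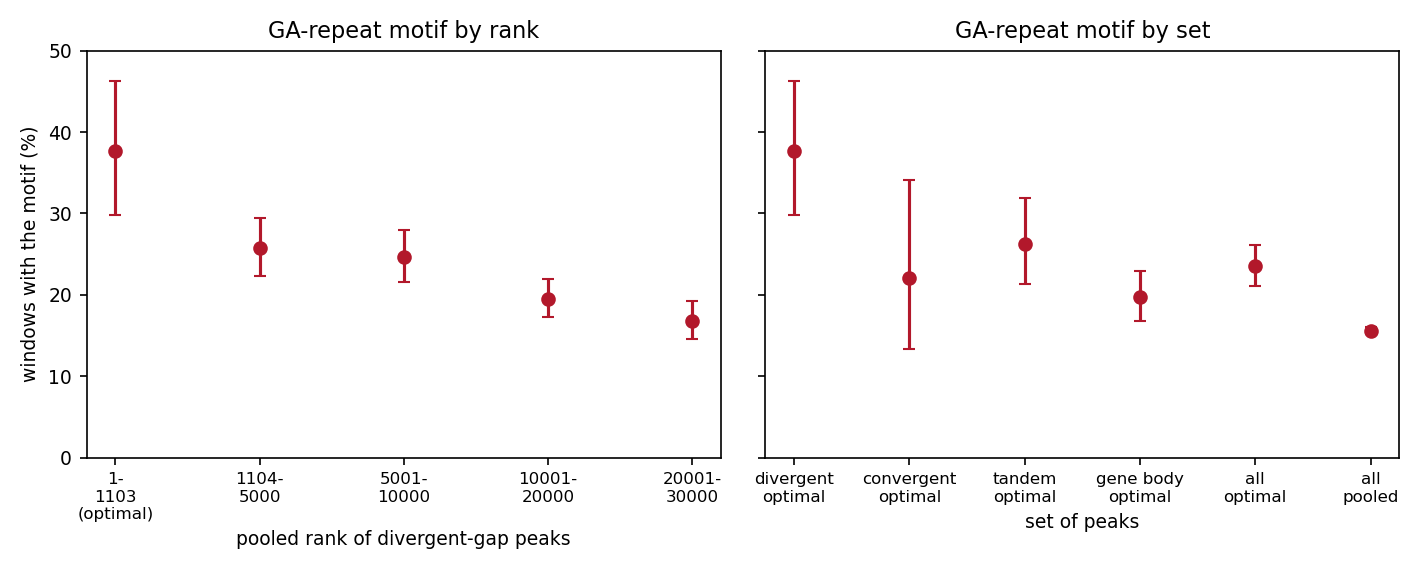
Percentage of summit windows of 201 bases that hold GAGAGA on either strand, for divergent-gap peaks by pooled rank (left) and for sets of peaks (right); bars are 95% Wilson intervals for counting. The optimal divergent-gap summits stand at 37.7%, against 16.8% beyond rank 20000 and 15.6% over all pooled peaks.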

How the data were processed

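AMA-1 ChIP-seq peak lists of 2 biological replicates, 1 group, were used as deposited on build ce11. Per the READMEs deposited with the samples, the relaxed lists were called against a control, on 1 replicate each or on both pooled, and an IDR procedure on those lists gave the optimal list. The names of the aligner and the peak caller were not given in the sources used here. Each peak carries a signal value, a score of the authors' peak caller in the format's column for it, which was used only as a rank within a list. Another deposited column gives −log10 of the q-value; it is at its highest value for 5554 of the 30000 pooled peaks and ranked nothing. Each peak was placed by its deposited summit, an offset counted from its left edge. Depth per sample is unknown, since no deposited file used here gives read totals.

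Genes were the 19973 protein-coding genes of Ensembl release 115 for WBcel235, whose coordinates are those of ce11: 99.9% of annotated start codons read ATG in the RefSeq genome of that name, and every peak ended within its chromosome. A gap is the sequence between neighbouring gene bodies; 3 pooled peaks lay beyond the last gene of a chromosome. Positions are 1-based. A replicate peak matched a pooled peak with an overlap of at least 1 bp, the nearest summit being taken; of the optimal divergent-gap peaks, 5 were matched over 150 bp away in replicate 1 and 1 in replicate 2. A non-coding gene counted as near within 100 bp. Shares have 95% Wilson intervals and densities exact Poisson intervals, for counting only. With 1 group, no test was made. Placement was tested on simulated data.

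Named pairs are those of the 12 strongest gaps, the strongest of each gap class, up to 2 genes of each list by rank (more where a sentence says what they share), pairs of 1 list, and 3 optimal peaks favouring each replicate by the ratio of ranks. The members and lists were chosen with earlier results of these data known. Alternatives moved the position used, the counting of entries, the bounding genes, the list and the overlap. The lists on build ce10 were not used here. Python 3.11.15 with numpy 2.4.6, pandas 2.3.3, scipy 1.17.1 and pyfaidx 0.9.0.4 was used.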

Additional observations from a re-analysis of the deposited data

How the results depend on the processing

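Of 34 alternative values, 23 stayed within the counting interval of the value reported and 11 left it. With all genes but piRNA genes bounding gaps, the median distance to a start was 429 bp instead of 829 bp, since gaps are then shorter. The optimal share was 1.57% with a stricter list of the 551 strongest peaks and 8.12% with a looser one of 2206 (7.35% of all pooled peaks), against 3.65%, and optimal peaks per Mb were 4.35 and 22.4, against 10.1, by construction. Without peaks near a non-coding gene, an alternative chosen after seeing the data, they were 7.76 per Mb. The share matched in both replicates was 25.8% with summits within 100 bp and 34.4% with an overlap of at least 50% of both peaks, against 53.0%. Under these 2 rules the share over all pooled peaks was not computed. Whether divergent-gap peaks still exceed all pooled peaks under them is therefore not known.

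The 1103 strongest peaks of a single replicate list were also taken in place of the optimal list, whose peaks come from the pooled list. The shares were then 3.32 to 4.41% (against 3.68% and 3.96% of those lists), with densities of 9.47 to 9.93 per Mb. Over each whole replicate list the divergent-gap peaks had median ranks of 12660 to 13824 and median distances of 671.5 to 887 bp. The list of replicate 1 holds 27847 peaks, so its ranks end earlier. No paired analysis was possible because the replicates form 1 group. Depth is unknown, so a summit missing from 1 replicate may reflect depth, which was not tested.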
